A study of Homo sapiens with 35 samples.

Results

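The AP-1 factors are basic leucine zipper proteins that bind DNA as dimers. The 10 genes described here were chosen by name: JUN, JUNB and JUND of the Jun family, FOS, FOSB, FOSL1 and FOSL2 of the Fos family, and BATF, BATF3 and ATF3 of the related BATF and ATF families. They are 10 of 19974 protein-coding genes on chromosomes 1 to 22 and X in the RefSeq table used. Their elements are the ATAC-seq peaks that overlap a gene or the 1 kb beside each of its ends, and the distal peaks with a summit within 100 kb of an end. Together these are 481 of 308145 peaks.

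Open chromatin was measured by ATAC-seq, in which a transposase cuts and tags DNA that is not tightly packed. The cells were blood progenitors grown from H1, a widely used line of human embryonic stem cells. The labels describe 12 libraries of a line named doxee17 treated with doxycycline to express ectopic MYC, 11 of untreated doxee17 and 12 of untreated H1, each over 6 days from day 10 to day 20. The doxee17 libraries are batch 1 and the H1 libraries batch 2 per the labels, so line and batch cannot be told apart; whether doxee17 is a single clone is not stated. The values are a single peak list that names no library, so no treatment, day or line could be compared, no replicate error can be given and no test between groups was run.

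Fos proteins dimerise with Jun proteins, whereas Jun proteins also pair with one another, and the dimers recognise the AP-1 site TGANTCA and, with ATF partners, the cAMP response element (CRE) TGACGTCA. Growth factors, cytokines and stress act through MAP kinases on factors already bound at the FOS and JUN promoters, so that both genes are transcribed within minutes as immediate early genes. In blood cells, AP-1 dimers are known for their part in monocyte and macrophage differentiation, and BATF and BATF3 for theirs in lymphocytes and dendritic cells.

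The sequences around the annotated starts are shown because the starts divided into 6 under a peak of at least 100-fold and 3 under a weaker peak or none, and these also differ in base composition. Each runs from 250 bases before to 50 after the start, 5′ to 3′, from RefSeq on GRCh38.p14, and capitals mark TGACG (the core of the CRE), TGANTCA and TATAAA on either strand. The table matched 8 of the 10 genes, with 9 starts, 2 of them of ATF3; FOSL1 and BATF3 have no entry. Shown are the starts of FOS (chr14:75278578-75278877, plus strand), FOSL2 (chr2:28392608-28392907, plus), JUN (chr1:58783998-58784297, minus), JUND (chr19:18281573-18281872, minus), BATF (chr14:75522219-75522518, plus) and the upstream start of ATF3 (chr1:212565157-212565456, plus).
FOS: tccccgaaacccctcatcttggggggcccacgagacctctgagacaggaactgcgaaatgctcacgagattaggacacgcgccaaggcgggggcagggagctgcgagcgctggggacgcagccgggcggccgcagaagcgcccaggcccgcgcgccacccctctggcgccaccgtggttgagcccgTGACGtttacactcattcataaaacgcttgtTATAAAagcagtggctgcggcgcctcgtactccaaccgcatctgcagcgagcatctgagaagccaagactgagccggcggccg
FOSL2: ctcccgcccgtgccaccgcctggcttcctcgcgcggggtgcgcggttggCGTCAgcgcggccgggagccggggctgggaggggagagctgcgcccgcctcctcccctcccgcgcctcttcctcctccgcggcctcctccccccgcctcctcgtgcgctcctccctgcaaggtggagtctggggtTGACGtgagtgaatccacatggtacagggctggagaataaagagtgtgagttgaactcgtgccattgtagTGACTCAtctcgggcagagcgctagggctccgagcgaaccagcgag
JUN: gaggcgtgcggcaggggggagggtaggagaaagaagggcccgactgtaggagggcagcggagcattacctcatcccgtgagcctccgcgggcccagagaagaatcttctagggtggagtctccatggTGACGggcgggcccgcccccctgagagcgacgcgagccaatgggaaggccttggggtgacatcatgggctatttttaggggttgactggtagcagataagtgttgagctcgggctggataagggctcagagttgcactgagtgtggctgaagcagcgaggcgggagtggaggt
JUND: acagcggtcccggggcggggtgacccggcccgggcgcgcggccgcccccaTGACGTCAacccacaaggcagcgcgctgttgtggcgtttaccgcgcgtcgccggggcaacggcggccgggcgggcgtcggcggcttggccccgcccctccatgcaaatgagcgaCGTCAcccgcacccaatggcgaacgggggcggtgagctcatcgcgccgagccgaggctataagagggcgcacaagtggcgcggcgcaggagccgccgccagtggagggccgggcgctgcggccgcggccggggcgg
BATF: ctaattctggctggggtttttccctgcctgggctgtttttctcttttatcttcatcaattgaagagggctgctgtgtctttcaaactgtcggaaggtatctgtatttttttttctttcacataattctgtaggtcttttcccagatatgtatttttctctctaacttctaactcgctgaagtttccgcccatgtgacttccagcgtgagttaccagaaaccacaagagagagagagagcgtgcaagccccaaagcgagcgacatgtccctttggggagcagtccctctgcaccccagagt
ATF3: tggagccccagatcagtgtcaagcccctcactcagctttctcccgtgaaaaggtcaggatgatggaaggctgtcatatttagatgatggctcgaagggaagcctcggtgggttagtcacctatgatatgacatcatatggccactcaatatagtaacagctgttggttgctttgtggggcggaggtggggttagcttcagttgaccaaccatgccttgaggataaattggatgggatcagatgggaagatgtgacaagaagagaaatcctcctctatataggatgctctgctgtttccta

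All 10 genes had a peak over the gene or its 1 kb flanks, as did 92.6% of all coding genes, so its presence sets none of them apart. Strength differed more. A peak of at least 100-fold enrichment over the background lay over 8 of the 10 genes, against 35.1% of all coding genes, and the median of the highest peak per gene was 125-fold for the AP-1 genes and 67.4-fold for all coding genes. Of the AP-1 genes, 9 lay above that second median, against 50% of all coding genes by construction. Fold enrichments are the authors' values per peak, and the ranges given with them are exact Poisson 95% intervals of the implied pileup. They cover counting error only, since reads that are PCR copies are not independent molecules, and say nothing of the spread between cultures. In a pooled list, weak opening in many cells and strong opening in few cannot be told apart.

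**Figure D1:**
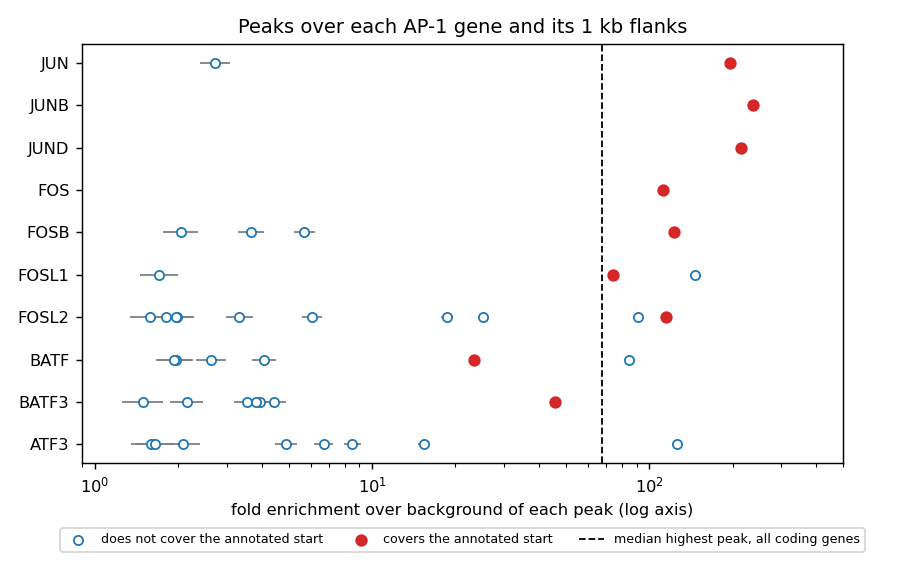
Fold enrichment (log axis) of every peak over each AP-1 gene and its 1 kb flanks; filled points cover the annotated start, open points do not, grey bars are Poisson 95% intervals and the dashed line is the median of the highest peak over all coding genes. JUNB, JUND and JUN have the highest points, while in FOSL1, BATF and ATF3 the highest point is open, so it does not cover the annotated start.

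The Jun genes carried the highest peaks of the family. JUNB (chromosome 19, 12791486 to 12793315) lay under a single peak of 237-fold (234 to 240) that ran over 15585 bp, from 12781559 to 12797143. Its summit was 1375 bp upstream of the JUNB start, and the same peak also covered an end of the neighbours HOOK2 and PRDX2, so its signal cannot be assigned to 1 gene. Because the summit lay outside the 1 kb flank, JUNB had no peak when the summit had to lie within it. JUND (chromosome 19, 18279694 to 18281622) lay under a peak of 215-fold (212 to 218) and 12383 bp, from 18270908 to 18283290, with the summit 170 bp upstream of the start. That peak ran 8786 bp past the 3′ end of JUND and covered an end of IQCN.

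JUN (chromosome 1, 58780791 to 58784047), whose product is the main partner of FOS, had a peak of 196-fold (193 to 199) and 4410 bp with its summit 146 bp upstream of the start. This peak did not reach the 3′ end of the gene, and a separate peak of 2.71-fold (2.39 to 3.06) lay just past that end. Ordered by highest peak, no neighbouring pair among JUNB, JUND and JUN had overlapping counting intervals.

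In the Fos family the highest peaks lay between 112-fold and 146-fold. FOS (chromosome 14, 75278828 to 75282230) was covered whole by a single peak of 112-fold (110 to 114) and 8136 bp, from 75276663 to 75284798, with the summit 195 bp upstream of the start. FOSL2 (chromosome 2, 28392858 to 28417317), which encodes Fra-2, had 115-fold (113 to 117) with the summit 42 bp upstream of the start, and the intervals of FOS and FOSL2 overlapped.

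FOSL2 was also the member with the most peaks over the gene, 10 in all. A peak inside it of 90.8-fold (88.9 to 92.7) lay 14099 bp from the start, at 28406399 to 28408050, and was followed by a peak of 25.2-fold. A peak of 18.7-fold lay next to the start peak. The remaining 6 were between 1.58-fold and 6.07-fold. FOSL2, 24460 bp long, thus combined an open start with a strong internal element. FOS, 3403 bp long, lay whole under 1 peak, so no separate peak within it could be called.

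FOSB (chromosome 19, 45467996 to 45475179) had 123-fold (121 to 125) with the summit 1372 bp inside the gene, and 3 weaker peaks from 2.04-fold to 5.70-fold farther along it or across its end. FOSL1 (chromosome 11, 65892049 to 65900545), which encodes Fra-1, had 73.9-fold (72.2 to 75.6) at its start, with the summit 22 bp inside the gene. A higher peak of 146-fold (144 to 149) and 6989 bp overlapped the FOSL1 3′ part, but its summit lay within 1 kb of an end of FIBP. Without peaks that have their summit at an end of another coding gene, FOSL1 stood at 73.9-fold, and 7 in place of 8 AP-1 genes reached 100-fold. The share of all coding genes at 100-fold was not computed that way, but the median of their highest peaks was then 37.9-fold.

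Among BATF, BATF3 and ATF3, no peak of 100-fold covered an annotated gene start. BATF (chromosome 14, 75522469 to 75546992) had 23.4-fold (22.4 to 24.4) at its start and 84.6-fold (82.8 to 86.5) inside the gene, 20409 bp from the start, at 75541872 to 75543665. BATF3 (chromosome 1, 212686417 to 212699840) had 45.9-fold (44.5 to 47.3) at its start, the lowest highest peak of the family, and 6 peaks from 1.49-fold to 4.43-fold over the rest of the gene and its 3′ flank. For BATF, then, the internal element was stronger than the start, and for BATF3 it was the start that led.

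ATF3 (chromosome 1, 212565407 to 212620777), a stress-induced factor, was the only member whose annotated gene start lay under no peak. The nearest peak, of 15.4-fold (14.6 to 16.2), began 978 bp inside the gene. The second ATF3 start in the table lay 124 bp past a peak of 1.65-fold and under none itself. The strong ATF3 peak of 126-fold (124 to 129) and 5051 bp, from 212605043 to 212610093, had its summit 43227 bp inside the gene. ATF3 is known to have alternative first exons, with its main transcript starting far downstream of the outermost exon; whether this peak marks such a start was not tested. The intervals of ATF3 and FOSB overlapped, so their order was not resolved.

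**Figure D2:**
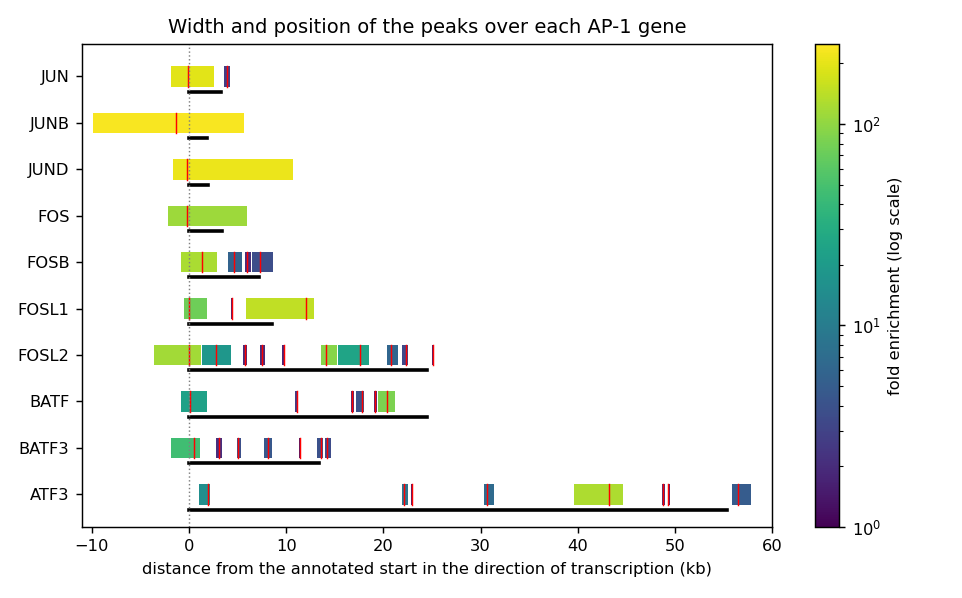
Position of every peak over each AP-1 gene, as the distance in kb from the annotated start in the direction of transcription; boxes show the width of a peak, their colour its fold enrichment (log scale), red lines the summits and black bars the genes. The boxes over JUNB, JUND and FOS cover the whole gene, whereas the strongest boxes in BATF and ATF3 lie 20409 bp and 43227 bp inside it.

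Peaks over the AP-1 genes were wide. JUNB, JUND and FOS were wholly covered with their 1 kb flanks, 3 of 10 genes against 1.19% of all coding genes. FOSB was covered to 82.2%, JUN to 79.6%, FOSL1 to 59.8%, FOSL2 to 50.7%, BATF3 to 34.5%, BATF to 23.6% and ATF3 to 15.8%. All 10 exceeded the median of all coding genes, 14.5%, which 50% of genes exceed by construction, although ATF3 did so narrowly. A peak of at least 5 kb lay over JUNB, JUND, FOS, FOSL1 and ATF3, 5 of 10 genes against 8.72% of all coding genes.

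Gene length moves with this measure, since a short gene is more easily covered. The AP-1 genes had a median length of 7840.5 bp, against 24170.5 bp for all coding genes. Among the 5658 coding genes under 10 kb the median coverage was 31.5% and the median highest peak 28.2-fold. The 6 AP-1 genes of that length (JUN, JUNB, JUND, FOS, FOSB and FOSL1) had medians of 91.1% and 171-fold, and 3 of the 6 were wholly covered, against 4.07% of all coding genes under 10 kb. The longer members, BATF, BATF3, FOSL2 and ATF3, were the 4 least covered.

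Read by start sites, 7 of the 9 AP-1 starts in the RefSeq table lay under a peak, against 66.2% of all 34961 starts, and 6 of 9 lay under a peak of at least 100-fold, against 23.9%. Those 6 were the starts of the Jun and Fos genes in the table. FOSL1, a Fos gene with no entry there, had only 73.9-fold at its start, so the split does not hold for the whole Fos family. The other starts were those of BATF and ATF3, and the 126-fold peak inside ATF3 covers no start in the table. Whether that peak marks a further ATF3 start was not tested. The GC content of those 6 starts ran from 62.0% (JUN) to 77.0% (JUND). The BATF start had 46.0% GC and the ATF3 starts 48.0% and 46.3%. Over all starts, those under a peak of at least 100-fold had a median of 66.0% GC and the others 54.7%, so the split among the AP-1 starts ran the same way as that over all starts.

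The 6 Jun and Fos starts in the table, which lacks FOSL1, also shared 1 of the motifs searched, which the choice of genes did not use. TGACG, the core of the CRE, was present on either strand in 6 of 9 AP-1 starts, namely those of JUN, JUNB, JUND, FOS, FOSB and FOSL2, and in 24.5% of all starts. It was present in 38.1% of starts under a peak of at least 100-fold. In FOS it began 64 bases before the start and in FOSB 60 bases before it, in JUN 123 and in JUNB 137. The full CRE TGACGTCA, which contains TGACG on both strands, was found only in JUND among these starts, 200 bases before the start, and in 1.85% of all starts.

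TATAAA was found 33 bases before the FOS start, 31 before that of JUNB and 30 before that of FOSB, and far from the start, 230 bases before it, at the second ATF3 start. It occurred in 11.5% of all starts but in 4.26% of those under a peak of at least 100-fold. The AP-1 site TGANTCA was found in FOSL2 alone, 4 bases after the start (7.68% of all starts). GGGCGG, the GC box, was in 7 of 9 AP-1 starts, in 45.03% of all starts and in 75.2% of those under a peak of at least 100-fold. CCAAT was in 4 of 9, in 34.6% of all starts and in 42.0% of those under such a peak. CACGTG, the E-box that MYC and MAX bind, and the CArG box that SRF binds were in 0 of 9 (7.27% and 1.30% of all starts). A match of letters is a description and not evidence of binding, and no match says only that these letters are not in this window.

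Distal peaks were frequent around the AP-1 genes. A distal peak has its summit 1 to 100 kb outside the gene and over 1 kb away from the ends of all coding genes. Such peaks numbered from 33 (JUNB) to 61 (FOS and FOSL2). The median density was 22.98 per 100 kb, against 14.1 for all coding genes. The density exceeded the median of all genes for 10 of 10 AP-1 genes (49.9% of all coding genes) and their upper quartile of 19.7 for 8 of 10 (23.4%). FOS and FOSL2 had 30.8 per 100 kb, BATF 26.3, ATF3 25.8, FOSB 23.2, BATF3 22.7, JUND 22.2 and JUN 20.2. FOSL1, with 19.2, and JUNB, with 16.7, stayed below the quartile. This depended on leaving out peaks at ends of other coding genes, 12 near FOSL1 and 16 near JUNB. With such peaks kept, FOSL1 had 25.3 and JUNB 24.7, above the quartile of that setting, 22.7. JUN, with 20.7, was then the only member below it. Without peaks nearer to another coding gene, the medians were 5.30 per 100 kb for the AP-1 genes and 1.01 for all coding genes, and 6 of 10 exceeded the upper quartile of all coding genes counted that way, 3.03.

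**Figure D3:**
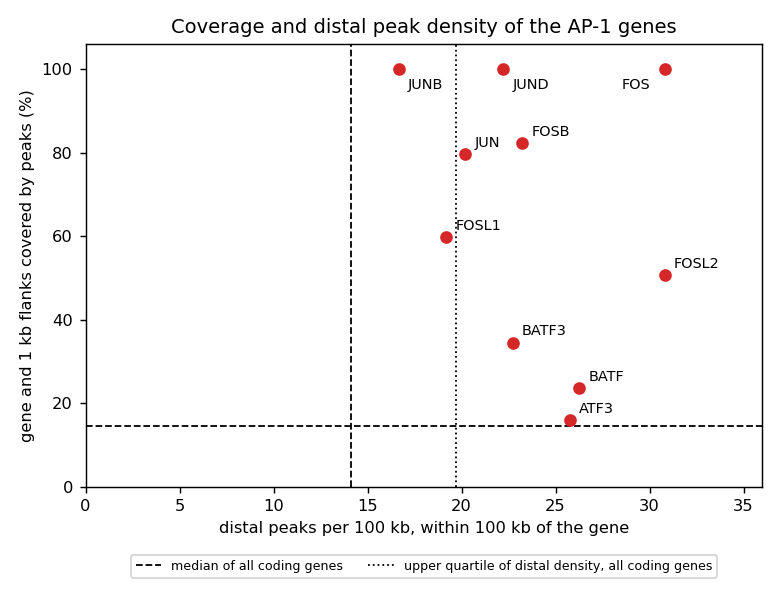
Share of each AP-1 gene and its 1 kb flanks covered by peaks (%) against its distal peaks per 100 kb; dashed lines are medians and the dotted line the upper quartile of distal density over all coding genes. JUNB, the member with the lowest density at 16.7 when peaks at ends of other coding genes are left out, is wholly covered. ATF3, with 25.8, is covered to 15.8%.

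Pooled over the genes, distal peaks near AP-1 genes had a higher median fold than all distal peaks, though not at every gene. Of 449 distinct distal peaks, 83 (18.5%) reached 20-fold, against 9.12% of all 286635 distal peaks, and the medians were 4.19-fold and 3.31-fold. The median was below 3.31-fold at FOSL2 (2.76), JUN (3.03) and JUND (3.19), and ran from 3.80-fold (ATF3) to 6.42-fold (JUNB) at the other 7 genes. The share at or above 20-fold was 39.4% around JUNB, 32.6% around FOSB, 21.3% around FOS, 20% around BATF3, 17.6% around ATF3, 15.9% around JUND, 15.4% around BATF, 13.2% around FOSL1, 11.5% around FOSL2 and 5% around JUN. At least 1 distal peak of 100-fold or more lay near 7 of 10 genes, against 22.5% of all coding genes. Such a peak was lacking near JUN, FOSL1 and BATF. Nearness assigns no peak to a gene: 40.3% of the distinct distal peaks lay inside a coding gene. The same share over all distal peaks was not computed.

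FOS had no other coding gene within 100 kb, so its 61 distal peaks all lay between genes. The highest, 194-fold (191 to 197) at chromosome 14, 75258041 to 75259904, was 19.7 kb upstream of FOS and ranked 280th among all distal peaks. It exceeded the peak over FOS itself. A second of 151-fold (149 to 154) and 6225 bp, from 75293497 to 75299721, lay 12.02 kb downstream, and the next, of 69.4-fold, lay 90.02 kb upstream.

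FOSL2 had its strongest distal peaks upstream, at 33.4 kb (136-fold, 133 to 138, 28358079 to 28361593), 25.99 kb (92.5-fold, 90.5 to 94.4) and 37.1 kb (41.9-fold, 40.6 to 43.2). Within 25 kb of its ends lay 22 distal peaks, more than for any other member, where the counts ran from 7 (JUNB) to 14. The median fold of the distal peaks was nevertheless lower at FOSL2 (2.76) than at JUN (3.03). JUN had few strong distal peaks. Its 40 distal peaks included only 2 of at least 20-fold, 57.2-fold (55.7 to 58.7) at 32.4 kb and 38.6-fold (37.4 to 39.9) at 99.5 kb, both upstream, and the next was 16.2-fold. The 38.6-fold peak lay just inside the 100 kb limit. Over all members, 19 distal peaks lay between 95 and 100 kb, with a median of 3.06-fold, and 18 lay in the next 5 kb, with 3.57-fold.

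The other Jun genes and FOSB lie among many genes. JUNB had 14 other coding genes within 100 kb, and 26 of its 33 distal peaks were inside them, the highest of 112-fold (110 to 114) in HOOK2, 15.8 kb upstream. The next were 90.2-fold in TNPO2, 68.7 kb upstream, and 76.7-fold in MAST1, 79.8 kb downstream. JUND had 4 distal peaks above 100-fold, more than any other member. They included 145-fold (142 to 147) 92.9 kb upstream, 132-fold (129 to 134) 55.04 kb downstream in PDE4C, and 129-fold (127 to 131) with a width of 6066 bp 10.2 kb upstream. FOSB had 38 of 46 distal peaks inside other coding genes; the highest was 152-fold (150 to 155), in the DNA repair gene ERCC1, 44.2 kb upstream. A peak of 95.6-fold (93.7 to 97.6) between genes lay 11.6 kb upstream of FOSB, and another of 86.7-fold lay inside ERCC1, 28.2 kb upstream.

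FOSL1, with 14 other coding genes nearby, had 5 distal peaks of at least 20-fold, led by 86.5-fold (84.7 to 88.4) at 88.6 kb upstream and 69.1-fold (67.5 to 70.8) at 73.7 kb downstream. The next, of 46.3-fold, lay inside FIBP, 7.199 kb downstream. BATF had 52 distal peaks, and its highest, 58.6-fold (57.1 to 60.1) and 57.6-fold (56.1 to 59.2), lay 68.4 kb downstream inside FLVCR2 and 25.1 kb upstream. The next was 32.0-fold, also in FLVCR2. None exceeded the 84.6-fold peak inside BATF.

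ATF3 and BATF3 lie near each other on chromosome 1, with 65.6 kb and the coding gene GARIN4 between them, and shared 22 distal peaks, 43.1% of the 51 around ATF3 and 48.9% of the 45 around BATF3. They are therefore not independent observations. The highest shared peak, of 113-fold (111 to 115) at 212665012 to 212666066, lay 44.8 kb downstream of ATF3 and 20.9 kb downstream of BATF3, since the genes run towards each other. The highest distal peak of BATF3 was the 126-fold peak inside ATF3, 77.8 kb away. Another shared peak, of 66.6-fold, lay 9.51 kb downstream of ATF3 and 56.1 kb downstream of BATF3. Upstream of ATF3 the highest peak was 76.0-fold (74.3 to 77.8), 6.43 kb before the outermost start, and thus stronger than the 15.4-fold peak next to that start.

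**Figure D4:**
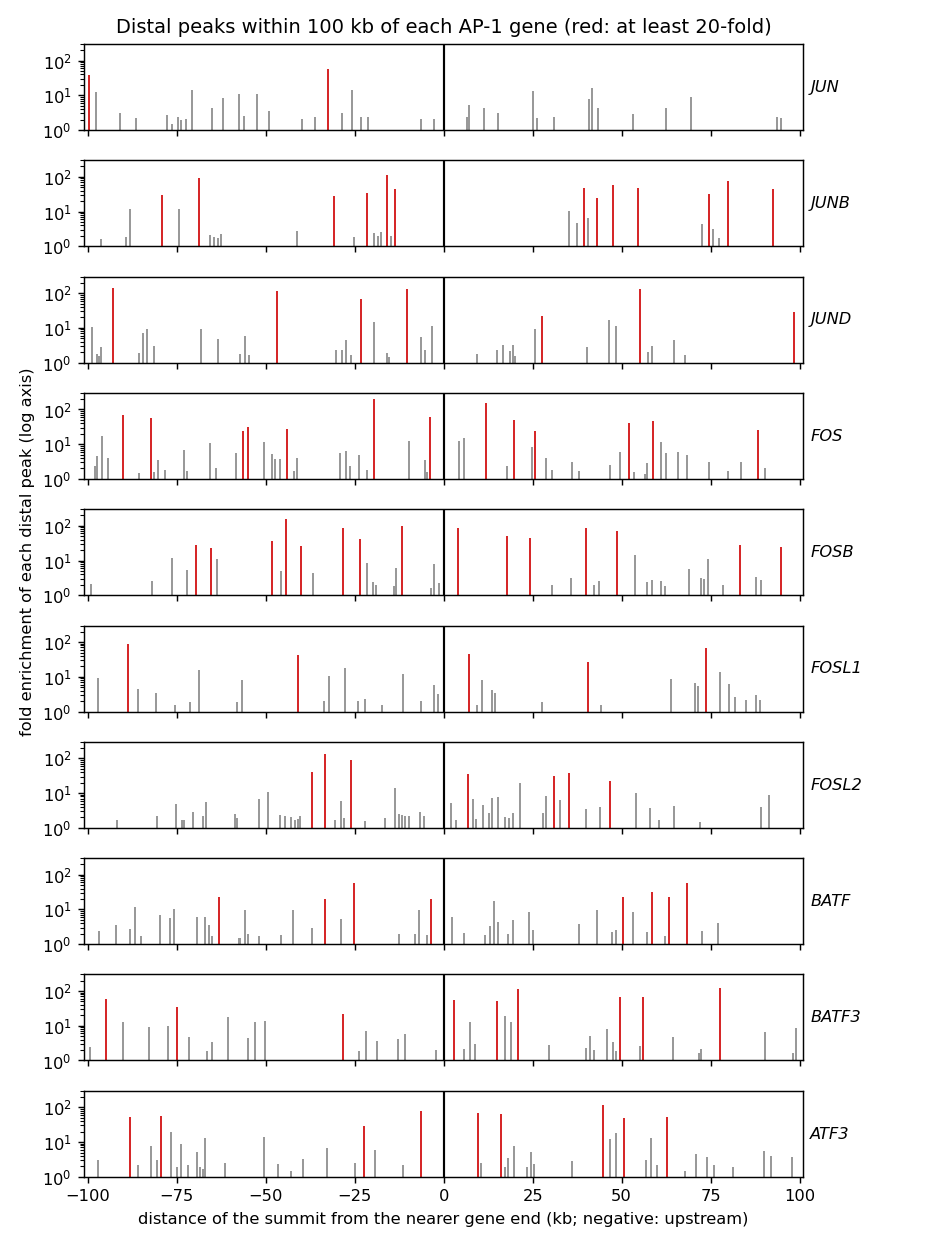
Every distal peak within 100 kb of each AP-1 gene: horizontal axis, distance of the summit from the nearer gene end in kb (negative upstream); vertical axis, fold enrichment (log); red lines are peaks of at least 20-fold, and the gene itself is drawn as the line at 0. FOS has 13 red lines and FOSB 15, while JUN has 2.

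Genes of the pathway around AP-1 were described with 5 lists, each set against the 67.4-fold median of all coding genes and against the 35.1% of them that reach 100-fold. Immediate early genes, which are induced with FOS and JUN, had a median highest peak of 158-fold, and 12 of 13 reached 100-fold. EGR1, a zinc finger factor, stood at 241-fold, ZFP36, which promotes mRNA decay, at 213, and KLF6 at 199. The lowest were EGR3 at 61.3 and DUSP2, a MAP kinase phosphatase, at 105.7. Of these 13 genes, 7 were wholly covered with their flanks, and 11 exceeded the upper quartile of distal density. Like the shorter AP-1 genes they are short, with a median length of 4501 bp.

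SRF and its cofactors, which bind the FOS promoter, had a median of 136-fold, and 4 of 6 reached 100-fold (SRF 247, MRTFA 241, ELK4 152; ELK3 48.2 and MRTFB 43.0). MAP kinases signal to these factors, and the MAP kinase list also holds kinases upstream of the MAP kinases. Its median was 132-fold, and 7 of 12 genes reached 100-fold. The highest were MAPK7 (245), MAPK14 (196) and MAP2K1 (186), and the lowest MAP3K1 (68.2) and MAPK3 (54.0). Other AP-1 partners and CRE-binding relatives had 146-fold, and 6 of 9 reached 100-fold (ATF2 292, CREB1 254, ATF7 204; CREB5 41.8 and BATF2 35.7). Median coverage was 14.5% for all coding genes. It was 24.5% for SRF and its cofactors, 19.5% for the MAP kinase list and 12.5% for the partners. Median lengths, in the same order, were 49759.5, 88505.5 and 76027 bp, against 24170.5 bp for all coding genes. Of the genes in these lists only ATF4 was wholly covered.

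Genes known as AP-1 targets stood lower than all coding genes, with a median of 44.4-fold and 1 of 11 at 100-fold. Their median coverage was nevertheless 46.6%, against 14.5% for all coding genes, and CXCL8, which encodes a neutrophil-attracting chemokine, was wholly covered. The targets are short, with a median length of 8242 bp. Coding genes under 10 kb had a median highest peak of 28.2-fold and a median coverage of 31.5%, both below those of the targets. PLAUR, the urokinase receptor, had 294-fold, TIMP1, a metalloproteinase inhibitor, 97.3 and PLAU, which encodes urokinase, 52.9. MMP1, a collagenase, had 20.2, and MMP3 had no peak over the gene or its flanks. Yet 6 of the 11 exceeded the upper quartile of distal density, among them PLAU, with 32.8 per 100 kb.

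**Figure D5:**
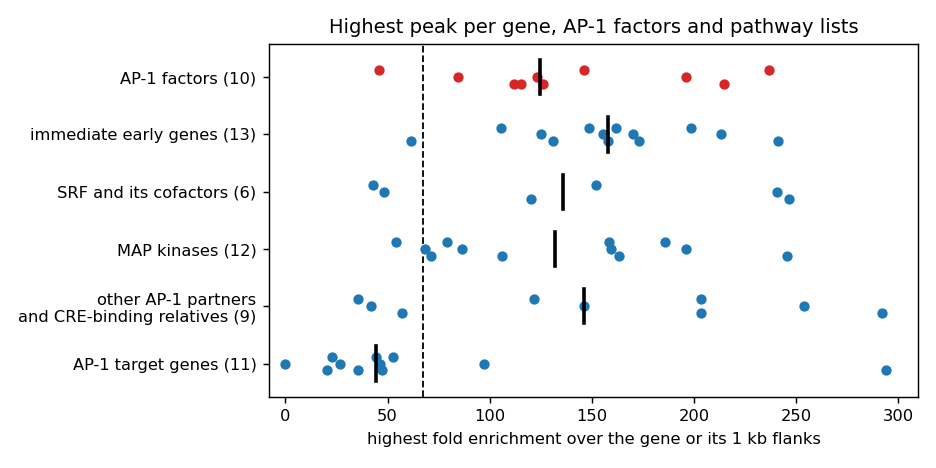
Highest fold enrichment per gene for the 10 AP-1 factors (red) and the 5 pathway lists (blue; number of genes in brackets); black bars are list medians and the dashed line is the median of all coding genes, 67.4-fold. Target genes have the lowest median, 44.4-fold, and immediate early genes the highest, 158-fold.

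The labelled cell type was compared with marker genes by the same measure. All 9 blood progenitor markers had a peak over the gene, as did 92.6% of all coding genes, and 5 of 9 exceeded the 67.4-fold median of all coding genes. They ran from 37.9-fold (MYB) to 118-fold (SPN, which encodes CD43). The pluripotency genes POU5F1, NANOG and DPPA2 had 1.93, 2.42 and 2.11-fold and SOX2 17.6. Of the markers of other cell types, FLG and DSG3 had no peak and ALB, DCN and DCX stayed under 5-fold, whereas SYP had 173-fold, PECAM1 82.9, COL1A1 60.6, AHSG 53.9, CDH5 33.4, KDR 28.4 and COL3A1 5.37. The part of other cell types in the AP-1 peaks was not tested.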

How the data were processed

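Nuclei (50000 per library) were transposed for 45 minutes and sequenced as paired 75-nucleotide reads, per the labels' protocols. Per the submitters' processing notes, Picard 2.2.4, Bowtie2 2.2.8 and Trim Galore 0.6.5 are listed, and MACS 2.1.0, GENCODE 36 and GRCh38 are named in the deposited peak names; duplicate filters, any transposase shift of reads and the pooled libraries are not given in the sources used here. The 35 described libraries are fewer than the 44 of the design text.

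The authors' deposited list holds for every peak its fold enrichment (a ratio on a linear scale) and the −log10 of its p-value. These matched a single background pileup of 93.5 (fold = (pileup + 1) / (background + 1), Poisson p), which sets the counting intervals; it corrects for no regional difference in copy number or mappability. Depth per library is unknown. The median of all peaks was 3.46-fold. A single peak of that fold has a 95% counting interval of 3.10 to 3.86.

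Peaks on chromosomes 1 to 22 and X (308145 of 308732) were set against RefSeq genes of GRCh38.p14, on the same chromosome coordinates. A peak lay over a gene with at least 1 bp of overlap with the gene or its 1 kb flanks. The 10 genes, the 5 lists (51 genes, all matched) and the marker lists were chosen with earlier results of these data known. Strands came from the RefSeq promoter table, and for FOSL1 and BATF3 from general knowledge. All 10 members are named; in each list the 3 genes with the highest and 2 with the lowest fold are named, and other neighbours only where a named peak touches them. ATF4 and CXCL8 were named after their values were seen. The shares among starts under 100-fold peaks, the GC content and the comparison with genes under 10 kb were also added then. No protein table was used here, so the planned protein comparison was not made. Calculations used pandas 2.3.3, scipy 1.17.1 and numpy 2.4.6 under Python 3.11.15, with matplotlib 3.10.9 for plots, and were tested on simulated data.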

Additional observations from a re-analysis of the deposited data

How the results depend on the processing

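No paired analysis was possible because the peak list holds no value for any library and no test between groups was run; for the same reason no library could be left out. The AP-1 medians for highest peak, coverage and distal density stayed above those of all coding genes under each alternative in which that measure was recomputed. All 10 genes kept a peak with stricter peaks or other flanks; 9 did when the summit had to lie in the window and 8 when at least 50% of the peak had to overlap, since JUNB, and then also JUND, lay under a peak mostly outside the gene. The number at 100-fold then fell to 5 with that overlap and to 6 by summit. The share of all coding genes at 100-fold was not computed under these settings. The median highest peak fell to 101.4-fold with that overlap (62.4-fold for all coding genes) and to 114-fold by summit (63.4-fold). Without peaks with a summit at another gene's end, an alternative added after the data were seen, it was 119-fold against 37.9-fold. Median coverage was 62.5% with the more significant 50% of peaks (10.9% for all coding genes), 56.9% with peaks of at least 5-fold (9.58%), 68.2% with 0.5 kb flanks (13.9%) and 61.8% with 2.5 kb flanks (14.6%). Median distal density was 13.4 per 100 kb with the more significant 50% (7.07 for all coding genes), 11.1 with peaks of at least 5-fold (5.05) and 5.30 without peaks nearer to another coding gene (1.01). The last setting left JUNB with 0 distal peaks and FOSL1 with 1.52 per 100 kb. From 6 to 9 genes exceeded the upper quartile of the same setting, and 7 of 9 without BATF3, also added later. Within 20 kb FOSL2 reached 52.6 per 100 kb. The 5 list counts stayed within 1.5 times. Depth per library is unknown, so weak peaks may come from few libraries.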

Other observations

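FOS and BATF lie on the same arm of chromosome 14 with 240 kb between them, and JDP2, which encodes a Jun-binding repressor, is the coding gene in that gap. The gap held 66 peak summits, 27.5 per 100 kb, of which 12 reached 20-fold. Every summit was counted, also those inside JDP2 and at gene ends. No density or share over all peaks was computed that way, so whether the gap is unusual was not tested. JDP2 itself had 19 peaks over the gene or its 1 kb flanks, the highest of 57.3-fold (95% counting interval 55.8 to 58.9) at 75426607 to 75429503, below the 67.4-fold median of all coding genes, and 25.8 distal peaks per 100 kb. The gap between ATF3 and BATF3, which holds the coding gene GARIN4, held 22 peak summits over 65.6 kb, 33.5 per 100 kb, 5 of them of at least 20-fold. These were counted in the same way, again with no value over all peaks to set them against.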
